A study of Mus musculus with 12 samples.

Results

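The replication-type histone genes of the mouse were taken as all gene symbols that begin with Hist1h, Hist2h, Hist3h or Hist4h. There were 68 of them among the 23183 genes listed. The 68 held 6 entries of the linker histone H1, 18 of H2A, 19 of H2B (with the processed pseudogene Hist3h2bb-ps), 12 of H3 and 13 of H4. They were followed in the hippocampus of mice given abdominal X-rays (13 Gy in the library names), the hippocampus of control mice without irradiation, the prefrontal cortex of the irradiated mice and the prefrontal cortex of the control mice. Every group held 3 libraries from 3 mice, and both regions of a mouse were sequenced, so that 6 mice gave 12 libraries. All mice were male C57BL/6, an inbred laboratory strain, and the brains were taken in the chronic phase of a model of gut injury by radiation. The sources used here state neither the age of the mice nor the time since exposure.

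Histones are the proteins around which DNA is wound. H2A, H2B, H3 and H4 form the core of the nucleosome, and H1 binds the DNA between nucleosomes. The replication-type genes lie in clusters and are transcribed mainly in S phase, when new DNA needs histones. Their messenger RNA classically ends in a conserved stem-loop bound by the protein SLBP in place of a poly(A) tail. Most cells of the adult brain no longer divide, and they draw largely on replication-independent histone genes, such as H3f3b and H2afz, whose messages are polyadenylated. Some cluster genes can also give polyadenylated messages in cells that do not divide. The libraries were made from total RNA with a strand-marking kit, and the sources used here do not say whether poly(A) RNA was selected.

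The stem-loop was searched in the annotated transcripts (GENCODE M21, build mm10) as GGNNCTTNTCAGNNCC with pairing arms, and it was found in 36 of the 68 members. It was found in 5 of 55273 genes that are no members. The form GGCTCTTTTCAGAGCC stood in 26 members of the types H1, H2A, H2B and H3. The H4 genes held 3 other forms, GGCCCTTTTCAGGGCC in 7 genes, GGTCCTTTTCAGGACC in 2 and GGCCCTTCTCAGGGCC in 1. The stem-loops of 5 members are shown because the results below turn on these genes, with the stem-loop in capitals and 5 bases on each side.
Hist3h2a: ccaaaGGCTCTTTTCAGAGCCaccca
Hist3h2ba: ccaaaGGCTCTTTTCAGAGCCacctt
Hist1h1c: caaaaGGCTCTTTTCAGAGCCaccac
Hist1h4h: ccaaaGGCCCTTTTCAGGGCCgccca
Hist2h2aa1: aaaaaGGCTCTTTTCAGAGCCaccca

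The position of the stem-loop set the annotated transcripts apart. In 18 members the transcript ended within 100 bases of the stem-loop, and Hist1h4h was the one of these whose mean over the 12 libraries reached 1 FPKM (a level per kilobase of transcript, scaled to the mapped fragments of the library). In 18 others the transcript ran on for at least 100 bases, and 5 of these reached that level, namely Hist3h2a, Hist3h2ba, Hist1h1c, Hist1h1e and Hist1h2be. After its stem-loop the transcript of Hist3h2a went on for 1643 bases, that of Hist1h1c for 840 and that of Hist3h2ba for 169. No stem-loop stood in the annotated transcripts of 32 members, of which 6 reached 1 FPKM, among them Hist1h2bc with its 2 exons. A poly(A) signal, AATAAA or ATTAAA, lay in the last 50 bases of 8 of the 12 members at or above 1 FPKM. It lay there in 7 of the 56 members below. Hist1h2bc, the highest member, had neither a stem-loop nor such a signal. The annotated transcripts of members at or above 1 FPKM were also longer, with a median of 1358 bases against 522. These are features of the annotation, and which ends the RNA had in these libraries was not measured.

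Promoters from RefSeq (GRCm38.p6, 250 bases before to 50 after the start) were matched for 61 members. CCAAT, the box read by the factor NF-Y, was present on either strand in 85.2% of them, against 37.8% of 27025 promoters of all genes. It stood in every matched promoter of H1, H2A, H2B and H3 genes and in 3 of 12 of H4 genes. The octamer ATTTGCAT was present in 21.3% of the members' promoters, against 1.74% of all. It stood in 7 of 18 H2A and 6 of 16 H2B promoters and in none of the 5 H1, 10 H3 and 12 H4 promoters. TATAAA was present in 55.7% of the members' promoters, against 14.1% of all. Octamers stood in 22.2% of the 9 matched promoters of members at or above 1 FPKM and in 21.2% of the 52 below. The promoters of 4 abundant members are shown with these motifs in capitals, on either strand. Hist3h2a and Hist3h2ba are close neighbours on chromosome 11, and Hist1h1c and Hist1h4i are the highest H1 and H4 genes. The windows are chr11:58954435-58954734 on the plus strand for Hist3h2a, chr11:58948661-58948960 on the plus strand for Hist3h2ba, chr13:23738557-23738856 on the plus strand for Hist1h1c and chr13:22041313-22041612 on the minus strand for Hist1h4i.
Hist3h2a: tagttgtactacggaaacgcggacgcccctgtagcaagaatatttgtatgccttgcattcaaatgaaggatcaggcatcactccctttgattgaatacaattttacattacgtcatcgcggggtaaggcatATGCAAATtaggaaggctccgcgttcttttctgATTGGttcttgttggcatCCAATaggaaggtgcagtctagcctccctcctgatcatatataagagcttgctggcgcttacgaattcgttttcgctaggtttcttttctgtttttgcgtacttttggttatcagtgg
Hist3h2ba: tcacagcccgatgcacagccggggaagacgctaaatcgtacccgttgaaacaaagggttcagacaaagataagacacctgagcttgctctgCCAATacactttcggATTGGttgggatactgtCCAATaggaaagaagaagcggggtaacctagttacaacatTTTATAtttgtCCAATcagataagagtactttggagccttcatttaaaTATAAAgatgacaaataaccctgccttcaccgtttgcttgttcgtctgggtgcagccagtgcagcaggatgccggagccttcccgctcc
Hist1h1c: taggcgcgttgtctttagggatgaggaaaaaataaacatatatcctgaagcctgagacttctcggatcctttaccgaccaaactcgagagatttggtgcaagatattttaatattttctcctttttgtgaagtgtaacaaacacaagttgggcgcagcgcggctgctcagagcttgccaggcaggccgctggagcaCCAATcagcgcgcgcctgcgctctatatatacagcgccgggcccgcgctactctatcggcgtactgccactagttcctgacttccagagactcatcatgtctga
Hist1h4i: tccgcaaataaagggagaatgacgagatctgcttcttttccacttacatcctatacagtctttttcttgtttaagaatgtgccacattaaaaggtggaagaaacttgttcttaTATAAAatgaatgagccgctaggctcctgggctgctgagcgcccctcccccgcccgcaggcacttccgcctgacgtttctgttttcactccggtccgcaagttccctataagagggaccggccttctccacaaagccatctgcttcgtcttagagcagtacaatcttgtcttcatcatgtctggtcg

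Few members were detected at an appreciable level. A mean of 1 FPKM or more across the 12 libraries was reached by 12 members, 44 lay between 0 and 1 FPKM, and 12 were listed at 0 in every library. Of all 23183 genes listed, 12894 reached that mean. Above 0 in at least 1 library were 19576 of all genes and 56 of the 68 members. The members at 0 were 6 H2A genes, 5 H2B genes and Hist1h4n. No H3 gene reached 1 FPKM, and the highest, Hist2h3b, had a mean of 0.322 FPKM. Hist1h2bc, an H2B gene, led with 41.5 FPKM and held 30.6% of the members' summed FPKM. Hist3h2a, an H2A gene, followed with 32.3 FPKM, Hist3h2ba, an H2B gene, with 25.8 FPKM and Hist1h1c, an H1 gene, with 11.9 FPKM. These 4 genes made up 82.2% of the sum. A low or zero value is a statement on these tables, since reads that match several near-identical copies may be split or dropped by a counting step that the sources used here do not describe. Of the 12 members listed at 0, 11 had less than 50% of their stretches of 50 bases to themselves.

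**Figure D1:**
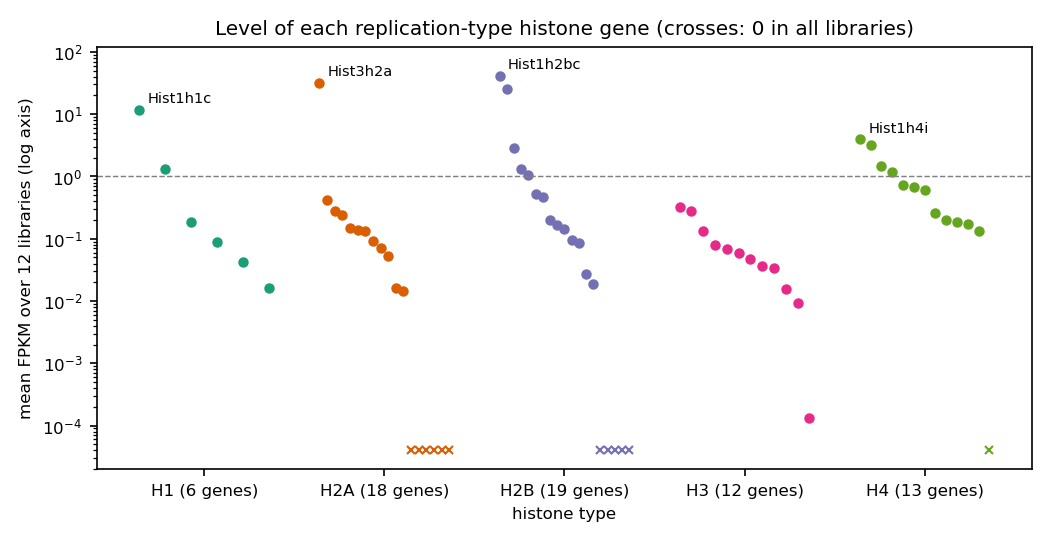
Mean FPKM over the 12 libraries (log axis) of each of the 68 members, by histone type, with crosses for the 12 members listed at 0 throughout and a dashed line at 1 FPKM. One gene holds most of the H1 and H2A level, and all 12 H3 genes lie under the line.

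The genomic clusters contributed unequally. On chromosome 13 (21715763 to 23934851) lay 54 members with 52.1% of the summed FPKM. The 3 members on chromosome 11 (58948920 to 58956830) held 43.2%, nearly all in Hist3h2a and Hist3h2ba. The 10 members on chromosome 3 held 4.58% and the member on chromosome 6, Hist4h4, 0.098%. By type, H2B genes made up 54.8% of the sum, H2A genes 24.99%, H1 genes 9.98%, H4 genes 9.46% and H3 genes 0.803%.

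Depth was estimated at 15.6 to 19.1 M fragments per library, from 60 to 100 genes in each. The estimate was searched within a fixed window of values that bounds it on both sides. It therefore cannot show that the depths were similar. Counts were not used here, so counting error per gene is unknown. The members' sum was 0.0247% to 0.041% of a library's summed FPKM. Markers of hippocampal neurons summed to 222.5 to 258.7 FPKM over the hippocampus libraries and to 75.6 to 89.0 FPKM over those of the prefrontal cortex, and 6 of 6 markers of cortical neurons were lower in control hippocampus than in control prefrontal cortex. A pair of libraries stood apart. Markers of the choroid plexus, which secretes the fluid of the ventricles, summed to 64.7 FPKM in hippocampus 13Gy 2, and to between 3134 and 5864 FPKM in the other hippocampus libraries. They summed to 65.2 FPKM in prefrontal cortex control 3, and to between 4.25 and 6.23 FPKM in the other prefrontal cortex libraries. In bulk tissue, a larger share of one cell type and more RNA per cell cannot be told apart.

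The first comparison asked whether the histone genes differed in the hippocampus after abdominal irradiation. No member passed the test. Hist1h2bc had 46.2, 44.4 and 55.2 FPKM in irradiated hippocampus, against 59.6, 57.6 and 54.9 FPKM in control hippocampus. The irradiated mice 1 and 2 lay below all controls, and mouse 3 lay among them. Its log2 difference of FPKM + 1 was -0.24 ± 0.083 (SE, 95% interval -0.43 to -0.05, limma adjusted p = 0.475). Of 12947 genes tested, 0 were called at an adjusted p under 0.05 (0%), and 1361 (10.5%) had an unadjusted p under 0.05. Of the 12 members tested, 0 were called and 1 had an unadjusted p under 0.05, Hist1h2bc. The irradiated and control libraries overlapped for all 12, while 15.6% of all genes tested had groups without overlap.

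The other abundant members gave overlapping groups. Hist3h2a had 35.5, 33.1 and 39.7 FPKM in irradiated hippocampus and 35.4, 36.9 and 40.0 FPKM in control hippocampus. Hist3h2ba had 22.5, 26.6 and 27.3 FPKM in irradiated and 27.2, 24.2 and 32.3 FPKM in control hippocampus. Hist1h1c had 10.95, 11.3 and 19.5 FPKM in irradiated hippocampus, against 15.8, 16.8 and 13.6 FPKM in control hippocampus, so that irradiated mouse 3 stood above all controls and the other irradiated mice below them. Its log2 difference was -0.18 with a 95% interval from -0.63 to 0.28. Of the H4 genes, Hist1h4i had 3.97, 5.38 and 4.50 FPKM in irradiated hippocampus and 9.18, 4.71 and 5.82 FPKM in control hippocampus, with the high value in control 1. Its difference was -0.39 ± 0.201 (SE, adjusted p = 0.517), and it was -0.16 without control 1.

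Hist1h4h, an H4 gene with a stem-loop near the end of its transcript, had 3.23, 2.66 and 4.11 FPKM in irradiated hippocampus and 4.30, 3.61 and 4.70 FPKM in control hippocampus (difference -0.27, adjusted p = 0.517). Hist2h4, another H4 gene, had 3.00, 0.564 and 2.34 FPKM in irradiated and 1.73, 1.15 and 0.340 FPKM in control hippocampus. Its interval ran from -0.40 to 1.33. Hist1h4k had 2.41, 0.996 and 1.80 FPKM in irradiated and 1.02, 4.32 and 1.48 FPKM in control hippocampus, and it shares 71.1% of its stretches of 50 bases with Hist1h4a, so reads of such H4 copies may not be told apart. Over the 12 members tested the median difference was -0.13, against -0.0093 over all genes tested, and 2 of 12 members were above 0, against 47.0% of all genes. These summaries turned on single libraries. Without irradiated hippocampus 2 the median was -0.029 and 6 of 12 members were above 0, and without irradiated hippocampus 1 it was -0.041 with 3 of 12 above 0. Without irradiated hippocampus 3 the median was -0.19, with 1 of 11 members above 0. Without control hippocampus 2 it was -0.089, with 4 of 12 above 0.

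**Figure D2:**
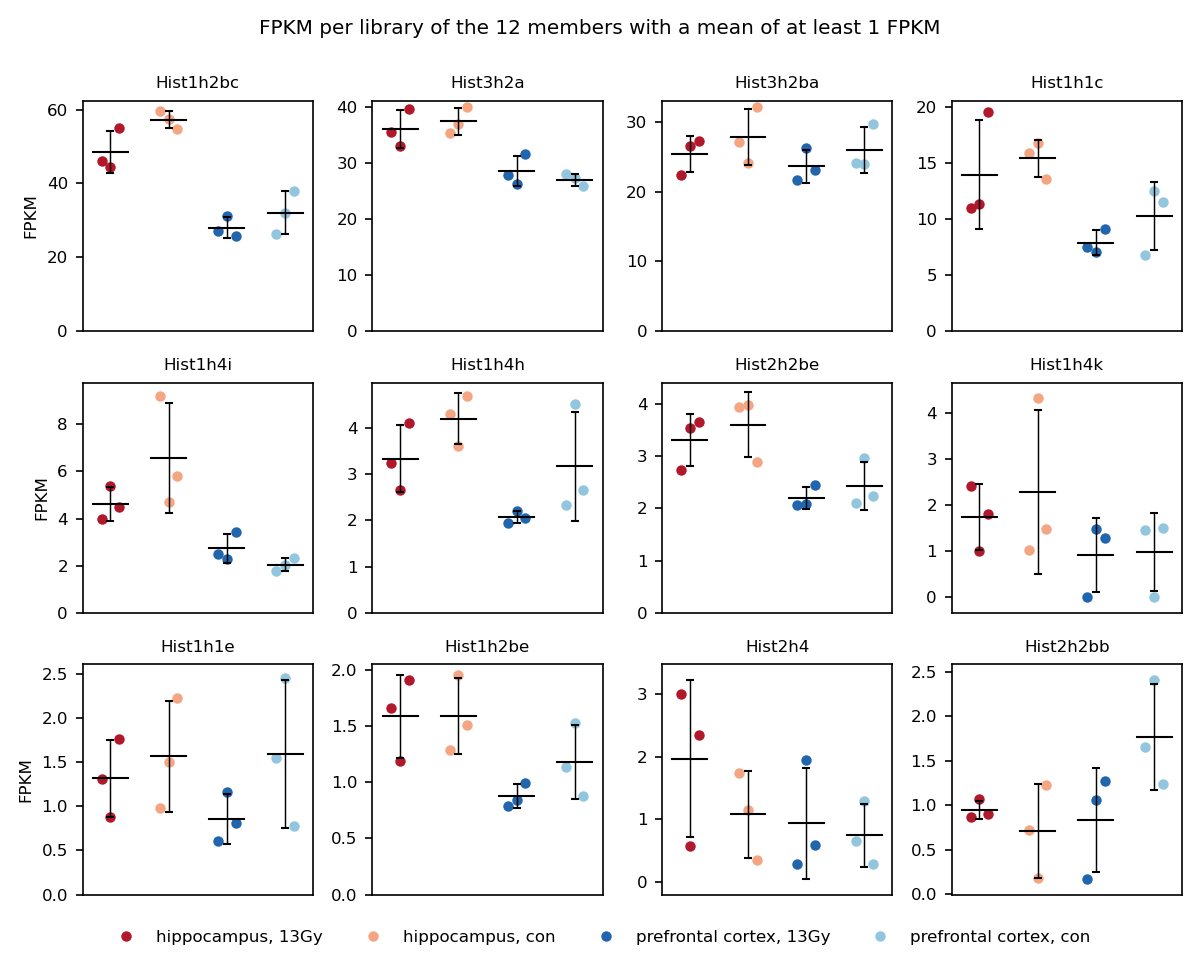
FPKM in each library (points) with the group mean (bar) and SD (error bar, n = 3 mice) for the 12 members whose mean reached 1 FPKM, with irradiated left of control within each region. The irradiated and control points of a region overlap for all of these but Hist1h4h in prefrontal cortex, while Hist1h2bc stands higher in hippocampus than in prefrontal cortex in both treatments.

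In the prefrontal cortex no member passed either. Of 12729 genes tested, 1 was called (0.00786%), the small nucleolar RNA Snora81, and 920 (7.23%) had an unadjusted p under 0.05. Of the 10 members tested, 0 were called and 2 had an unadjusted p under 0.05. Hist2h2bb, an H2B gene, had 0.173, 1.06 and 1.28 FPKM in irradiated prefrontal cortex, against 1.66, 2.41 and 1.24 FPKM in control prefrontal cortex. Irradiated 3 lay above control 3, so the groups overlapped. Its difference was -0.63 ± 0.246 (SE, adjusted p = 0.604), and it was -0.33 without irradiated 1. Hist1h4h had 1.94, 2.20 and 2.05 FPKM in irradiated and 2.32, 4.53 and 2.67 FPKM in control prefrontal cortex, with no overlap. Its difference was -0.41 ± 0.172 (SE, adjusted p = 0.646), and it was -0.19 without control 2, the library at 4.53 FPKM. Groups without overlap on the lower side were found for 7.44% of all genes tested, and on the higher side for 6.25%. Among the 58 members too low to be tested there, Hist1h4d, Hist2h2ab and the pseudogene Hist3h2bb-ps were lower without overlap in irradiated prefrontal cortex. Hist1h2ae was higher there without overlap. These members were picked after their values were seen. Their values in prefrontal cortex lay between 0 and 0.619 FPKM. The smallest value above 0 of a member below 1 FPKM had a median of 0.189 FPKM (41 members). Left out of this median were Hist2h2aa1, Hist2h2aa2 and Hist2h3c1, with smallest values above 0 of 3.89e-06, 0.000149 and 0.00159 FPKM. The shares above cover tested genes alone, and no share was computed for genes this low.

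Hist1h2bc had 27.1, 31.3 and 25.8 FPKM in irradiated prefrontal cortex, against 26.2, 32.1 and 37.8 FPKM in control prefrontal cortex, and the groups overlapped. Hist1h1c had 7.48, 7.04 and 9.13 FPKM in irradiated and 6.76, 12.5 and 11.5 FPKM in control prefrontal cortex. Hist1h4i had 2.49, 2.28 and 3.44 FPKM in irradiated and 1.79, 2.04 and 2.32 FPKM in control prefrontal cortex, and its difference of 0.28 had an adjusted p of 0.706. Hist1h1e, an H1 gene that overlaps Hist1h2be on the same strand, had 0.605, 1.16 and 0.813 FPKM in irradiated and 1.55, 2.46 and 0.779 FPKM in control prefrontal cortex (difference -0.44, adjusted p = 0.731). Over the 10 members the median difference was -0.19, and 2 of 10 were above 0, against 51.2% of all genes tested.

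**Figure D3:**
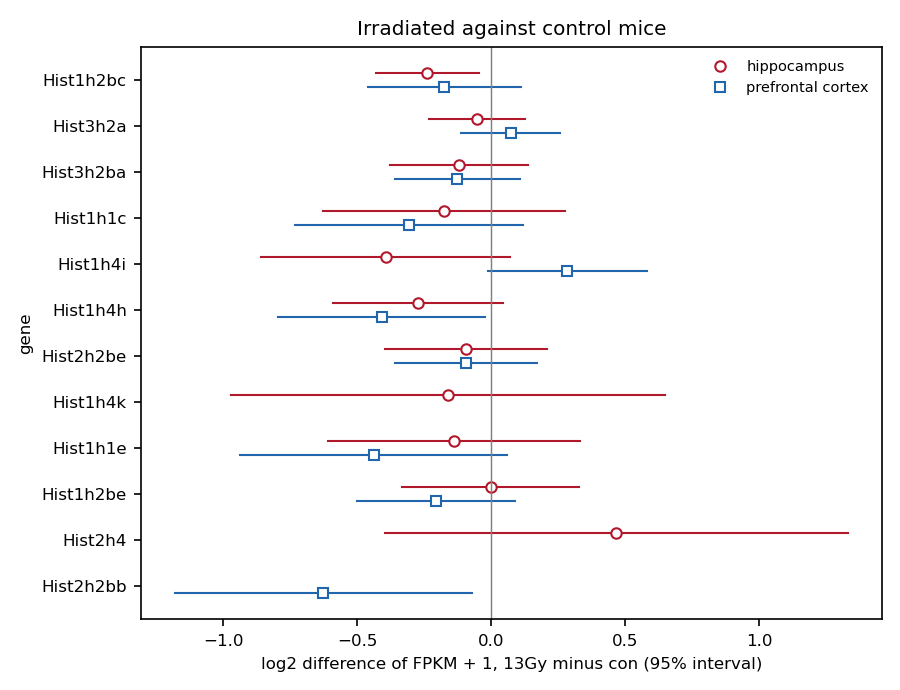
Log2 difference of FPKM + 1, 13Gy minus con, with its 95% interval for the named members tested in hippocampus (circles) and prefrontal cortex (squares). All markers are open, since no member had an adjusted p under 0.05, and genes below the filter in a region have no marker there.

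The difference of the effects between the regions was called for 0 of 12894 genes (0%), and 422 (3.27%) had an unadjusted p under 0.05. Of the 12 members tested, 0 were called and 2 had an unadjusted p under 0.05, Hist1h4i and Hist2h2bb, in opposite directions. Without single libraries the number of members under 0.05 was 0 to 2. Hist1h4i had the smallest p, with an effect lower in hippocampus than in prefrontal cortex by a log2 difference of -0.68 (95% interval -1.24 to -0.11, adjusted p = 0.9998). Hist2h2bb followed with 0.86 (95% interval 0.06 to 1.66). Its level was 0.868, 1.07 and 0.906 FPKM in irradiated hippocampus and 0.724, 0.180 and 1.23 FPKM in control hippocampus. Hist3h2a, Hist1h2be and Hist1h1e came next with -0.13, 0.20 and 0.30.

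Summed over all 68 members, the level was 142.0, 141.2 and 172.2 FPKM in irradiated hippocampus, against 170.3, 166.6 and 170.1 FPKM in control hippocampus. It was 99.4, 110.5 and 107.5 FPKM in irradiated prefrontal cortex, against 105.5, 118.9 and 122.9 FPKM in control prefrontal cortex. Irradiated hippocampus 3 lay above all controls, while the other irradiated hippocampus libraries lay below them. The ratio of the irradiated to the control mean was 0.898 in hippocampus and 0.914 in prefrontal cortex. On the log2 scale the ratio in hippocampus was -0.15, and -0.26 without irradiated hippocampus 3. All genes summed to 387367 to 419823 FPKM in irradiated and 417801 to 435534 FPKM in control hippocampus. The members' share of that sum was 0.0358%, 0.0365% and 0.0410% in irradiated hippocampus, against 0.0391%, 0.0392% and 0.0407% in control hippocampus. In prefrontal cortex all genes summed to 381417 to 406369 and 416042 to 420431 FPKM in the same order. The share there was 0.0247%, 0.0290% and 0.0264% in irradiated, against 0.0251%, 0.0286% and 0.0295% in control mice. The H3 genes together gave 0.113 to 2.05 FPKM in irradiated hippocampus and 0.435 to 1.87 FPKM in control hippocampus. The 56 members below 1 FPKM summed to 7.67 to 9.54 FPKM in irradiated and 9.12 to 9.79 FPKM in control hippocampus.

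**Figure D4:**
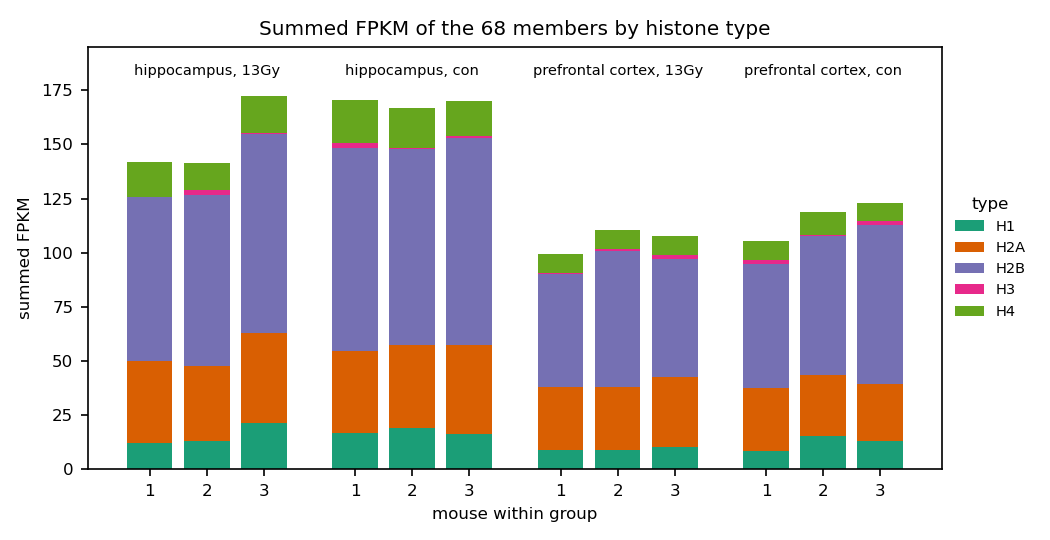
Summed FPKM of the 68 members in each library, stacked by histone type, with irradiated left of control within each region. All 6 hippocampus bars, from 141.2 to 172.2, stand above all 6 prefrontal cortex bars, from 99.4 to 122.9.

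Hippocampus and prefrontal cortex were compared within the control mice to set these values beside a regional difference. Of 12923 genes tested, 3922 (30.3%) were called, and 2030 (15.7%) were higher in hippocampus. Of the 11 members tested, 5 were called higher in hippocampus and 1 was called lower. The members called higher were the H2B genes Hist1h2bc and Hist2h2be, the H2A gene Hist3h2a, the H1 gene Hist1h1c and the H4 gene Hist1h4i. The median difference over the 11 members was 0.42, against 0.0051 over all genes tested.

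Hist1h2bc averaged 57.3 ± 2.37 FPKM in hippocampus of control mice, against 32.0 ± 5.83 FPKM in their prefrontal cortex (SD, n = 3 each), a log2 difference of 0.83 ± 0.115 (SE, limma adjusted p = 0.00054). All control hippocampus libraries lay above all control prefrontal cortex libraries, as they did for 4 of the 11 members tested and for 23.7% of all genes tested. Hist1h4i averaged 6.57 ± 2.33 FPKM in hippocampus of control mice, against 2.05 ± 0.264 FPKM in their prefrontal cortex (SD, n = 3 each), a difference of 1.27 ± 0.188 (SE, limma adjusted p = 0.00083). Hist3h2a averaged 37.4 ± 2.35 FPKM in hippocampus of control mice, against 27.0 ± 1.05 FPKM in their prefrontal cortex (SD, n = 3 each), a difference of 0.45 ± 0.068 (SE, limma adjusted p = 0.00091). It shares 31.5% of its stretches of 50 bases with Trim17, which overlaps it on the same strand and had 0.981 to 1.93 FPKM in all libraries. Its neighbour Hist3h2ba averaged 27.9 ± 4.06 FPKM in hippocampus of control mice, against 26.0 ± 3.31 FPKM in their prefrontal cortex, with an interval of the difference from -0.17 to 0.36.

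The remaining calls were nearer the threshold. Hist1h1c averaged 15.4 ± 1.66 FPKM in hippocampus of control mice, against 10.2 ± 3.05 FPKM in their prefrontal cortex (difference 0.58, limma adjusted p = 0.042). Hist2h2be had 3.95, 3.98 and 2.88 FPKM in control hippocampus, against 2.11, 2.96 and 2.23 FPKM in control prefrontal cortex (difference 0.42, limma adjusted p = 0.041), and these groups overlapped. Hist2h2bb, the member lower in hippocampus, had a difference of -0.72 (limma adjusted p = 0.043), and 53.6% of its stretches of 50 bases are shared with the overlapping Gm42743. Without control hippocampus 1, or without control hippocampus 2, none of these 3 was called (adjusted p = 0.0892 to 0.141). Hist1h1c was also lost without control hippocampus 3 (adjusted p = 0.0511), Hist2h2be without control prefrontal cortex 1 or 3 (adjusted p = 0.106 and 0.111) and Hist2h2bb without control prefrontal cortex 1 or 2 (adjusted p = 0.0846 and 0.131).

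The irradiated mice, which are other animals, gave the same comparison again, chosen after the data were seen. There, 3758 of 12878 genes (29.2%) were called and 1786 (13.9%) were higher in hippocampus. Of 11 members tested, 0 were called lower and 7 were called higher, namely Hist1h2bc, Hist3h2a, Hist1h1c, Hist1h4i, Hist2h2be, Hist1h4h and Hist1h2be. Hist1h2bc averaged 48.6 ± 5.76 FPKM in irradiated hippocampus and 28.1 ± 2.85 FPKM in irradiated prefrontal cortex (SD, n = 3 each), a difference of 0.77 ± 0.0997 (SE, limma adjusted p = 0.00091). Hist1h4i had a difference of 0.59 and Hist1h1c of 0.71. Every hippocampus library of these mice lay above every prefrontal cortex library for 7 of the 11 members tested, the same 7 that were called. This held for 21.4% of all genes tested. Within mice, Hist1h2bc, Hist3h2a, Hist3h2ba, Hist1h1c, Hist1h4i, Hist2h2be and Hist1h2be were each higher in hippocampus in 6 of 6. That makes 58.3% of the 12 members averaging 1 FPKM or more, against 22.5% of 12894 genes at that level. Hist1h4h was higher in hippocampus in 5 of 6 mice, Hist2h4 in 4, Hist1h4k and Hist1h1e in 3 and Hist2h2bb in 2. Hist2h2bb was not tested there, since its mean lay below 1 FPKM, and over all 6 mice its difference was -0.29 (adjusted p = 0.226). Without hippocampus 13Gy 2, the library with few choroid plexus transcripts, 6 members were called in the irradiated mice, and Hist2h2be had an adjusted p of 0.0586.

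**Figure D5:**
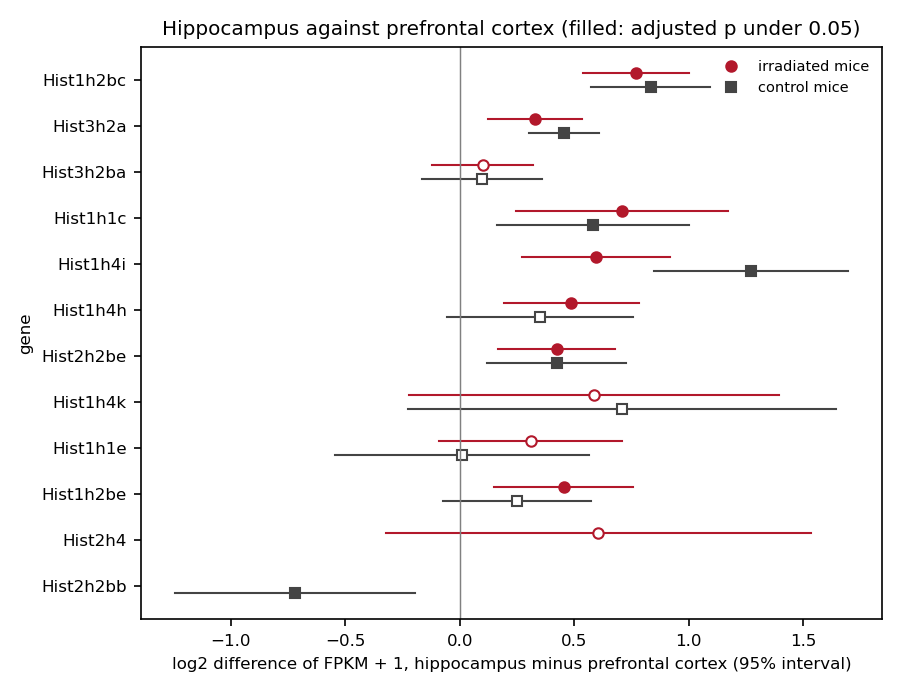
Log2 difference of FPKM + 1, hippocampus minus prefrontal cortex, with its 95% interval in irradiated mice (circles) and control mice (squares), filled where the adjusted p was under 0.05. Hist1h2bc, Hist3h2a, Hist1h1c, Hist1h4i and Hist2h2be are filled in both, and Hist3h2ba in neither.

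Markers of other cells differed between the regions too. In control mice 8 of 8 oligodendrocyte markers were higher in hippocampus, with summed levels of 2324 to 2846 FPKM in hippocampus, against 1736 to 1905 FPKM in prefrontal cortex. Of 8 astrocyte markers 7 were higher, 6 of them called, and of 8 choroid plexus markers 8 were higher and called. Of 8 endothelial markers 7 were lower in hippocampus, 6 of them called. In irradiated hippocampus the endothelial markers summed to 71.7 to 84.9 FPKM, against 35.1 to 49.0 FPKM in control hippocampus, with 0 of 8 called. The oligodendrocyte markers went with the sum of the histone members in direction, at an irradiated to control ratio of 0.835 in hippocampus and 0.862 in prefrontal cortex. Of the 8, 1 had a difference above 0 in each region, 3 in hippocampus and 5 in prefrontal cortex had an unadjusted p under 0.05, and 0 were called. The ratio was also below 1 in both regions for markers of microglia (0.914 and 0.974) and astrocytes (0.974 and 0.953). The same held for the sums of oligodendrocyte precursors (0.986 and 0.958), neurogenesis (0.968 and 0.979) and choroid plexus (0.549 and 0.191). Yet 5 of 8 precursor markers and 8 of 13 neurogenesis markers tested had a difference above 0 in hippocampus. In prefrontal cortex 1 of 8 and 3 of 12 did. The choroid plexus ratios were set largely by single libraries. Hippocampus 13Gy 2 had 64.7 FPKM, against 3134 and 4660 in the other irradiated mice. Prefrontal cortex control 3 had 65.2 FPKM, against 6.23 and 5.31 in the other controls. The ratio of the sums was above 1 in both regions for endothelium (1.79 and 1.28), blood (1.47 and 1.08) and cortical neurons (1.18 and 1.04). Meninges (1.75 and 0.595) and hippocampal neurons (0.944 and 1.03) lay on both sides. The part of these cells in the histone values was not tested.

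For the gene lists below, the background is the share of all genes tested that were called. For irradiation it was 0 of 12947 in hippocampus and 1 of 12729 in prefrontal cortex. Between the regions of control mice it was 30.3%. The first list held genes that make or use histone messages. SLBP's gene Slbp averaged 10.7 ± 0.673 FPKM in irradiated hippocampus and 10.1 ± 2.08 FPKM in control hippocampus, and Npat, a coactivator of histone gene transcription, averaged 4.44 ± 0.477 and 3.97 ± 0.609 FPKM in the same groups (SD, n = 3 each). Of 23 genes of histone mRNA synthesis and processing, 21 were tested and 0 were called for irradiation in either region. Between the regions of control mice 1 of 21 was called, Lsm11, a component of the U7 particle that cuts histone messages, with 8.30 ± 0.558 FPKM in hippocampus, against 4.34 ± 0.247 FPKM for prefrontal cortex (SD, n = 3 each, limma adjusted p = 0.000108).

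The 11 replication-independent histone genes summed to 551.1 to 614.2 FPKM in irradiated hippocampus and 615.4 to 643.9 FPKM in control hippocampus, above the sum of the 68 members in the same groups. Single genes ranged widely, with means over the 12 libraries above that of Hist1h2bc for H3f3a, H2afz, H3f3b and H1fx and below it for the other 7. H3f3b, a gene of the variant H3.3, averaged 101.0 ± 6.3 FPKM in irradiated hippocampus and 103.3 ± 0.488 FPKM in control hippocampus, and H2afz, the gene of the variant H2A.Z, 108.7 ± 7.66 and 120.6 ± 4.26 FPKM in the same groups (SD, n = 3 each). Of 11 such genes 0 were called for irradiation in either region. In control mice H1f0 and H3f3a were higher in hippocampus than in prefrontal cortex, with differences of 0.35 and 0.33, and H2afy2 was lower, with -0.42. Of 20 histone chaperones tested, 0 were called for irradiation in either region. Between regions Npm1 was higher in hippocampus, and Nap1l1 and Hjurp were lower.

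Mki67 and Top2a, markers of dividing cells, lay below 1 FPKM in every library. Mki67 had 0.115 to 0.236 FPKM in irradiated hippocampus and 0.136 to 0.174 FPKM in control hippocampus, and Top2a had 0.0399 to 0.0607 and 0.0636 to 0.129 FPKM in the same groups. In prefrontal cortex Mki67 had 0.162 to 0.264 FPKM in irradiated and 0.212 to 0.227 FPKM in control mice, and Top2a 0.154 to 0.318 and 0.175 to 0.271 FPKM. Other genes of this list were higher, and Pcna, the sliding clamp of replication and repair, had 31.1 to 41.3 FPKM over the 12 libraries. Of 32 genes of S phase and mitosis, 15 were tested in hippocampus and 0 were called for irradiation. Between the regions of control mice Mcm6, a subunit of the replicative helicase, was higher in hippocampus by 0.57, and E2f1, Mcm5 and Ccne1 were lower, with E2f1 at -1.02. Of other RNAs without a poly(A) tail, Rmrp had 8.96, 14.1 and 13.4 FPKM in irradiated prefrontal cortex, against 34.8, 24.4 and 34.9 FPKM in control prefrontal cortex. The groups did not overlap, and the adjusted p was 0.0946. In irradiated hippocampus Rmrp had 13.7, 9.65 and 8.37 FPKM, against 11.9, 15.6 and 14.3 FPKM in control hippocampus. Snora30, a small nucleolar RNA with the smallest p of this list in hippocampus, was listed at 0, 127.0 and 157.6 FPKM in irradiated hippocampus and at 0 in all 3 control libraries (adjusted p = 0.475). The sum of the list was 31.6, 151.7 and 170.6 FPKM in irradiated hippocampus, against 24.7, 28.3 and 25.7 FPKM in control hippocampus.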

How the data were processed

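The authors deposited, for each library, a table of gene symbols with 1 value per gene. The deposited values were taken as FPKM, which the tables do not name, from their non-whole values and their steps with gene length. Per the submitters' processing notes, TopHat was the aligner and mm10 the build, and the sources used here name no counting tool, annotation or strand setting. Libraries were directional and all 12 carry 1 batch label, per the labels' protocols. Members and lists were chosen with earlier results of these data known.

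Genes averaging 1 FPKM or more in the libraries of a comparison were tested on log2(FPKM + 1), a scale that understates changes of low genes, with limma 3.58.1 in R 4.3.3 (limma-trend, two-sided, Benjamini-Hochberg over all genes tested, threshold 0.05) and checked on simulated data. The 4 comparisons took irradiated against control mice in each region, the difference of these effects, and the regions of control mice. With 3 against 3, an exact permutation test of a single gene cannot go below p = 0.1. Values per library are given for members averaging 1 FPKM or more and the 5 of smallest p per comparison; other members are summarised, and of the related lists up to 4 genes of smallest p. Alternatives were other pseudocounts (0.1, 0.5), filters and scalings, robust moderation, a fit over 12 libraries, leaving out each library, and a replicate block. Depth was estimated from the lowest values of genes with a single transcript, within a fixed window of values.

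Regions with the same number come from the same mouse, so they pair. Both regions of a mouse deviated from their groups with a correlation of 0.174, 0.256 and 0.3 in irradiated and of 0.29, -0.006 and 0.0542 in control mice. Irradiated and control libraries share only a number and come from different mice. Their deviations correlated at 0.103, -0.0175 and -0.16 in hippocampus and at 0.141, 0.12 and 0.117 in prefrontal cortex, where all were above 0.1.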

Additional observations from a re-analysis of the deposited data

Results flagged for a closer look

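Hist2h2aa1, an H2A gene on chromosome 3, was listed at values whose irradiation effect differed between the regions when genes of low level were tested too. This concerns its listed values alone, and for the sum with its near-identical copy the difference between the regions was not tested. It had 1.00, 0.727 and 1.03 FPKM in irradiated hippocampus, against 0, 0 and 3.89e-06 FPKM in control hippocampus. In irradiated prefrontal cortex it had 0.142, 4.03e-05 and 0 FPKM, and it was listed at 0 in all 3 control libraries there. The irradiated hippocampus libraries thus stood above all others. With no filter on low values the difference of the effects was 0.87 (limma adjusted p = 0.0265), the 1 gene called of all tested. The effect in hippocampus alone had a limma adjusted p of 0.0744, and its exact two-sided permutation p was 0.1, the smallest that 3 against 3 libraries can give. The gene lies below the level tested in the report, and the call rests on that filter.

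Hist2h2aa1 shares 89.2% of its stretches of 50 bases with Hist2h2aa2, which has none of its own. Gm20634, which overlaps Hist2h2aa1 on the same strand and is not among the genes listed, holds 89.4% and 100% of their stretches. Hist2h2aa2 had 0.000327, 0.000186 and 0.000334 FPKM in irradiated hippocampus, against 0.265, 0 and 0.295 FPKM in control hippocampus. The sum of both genes was 1.00, 0.727 and 1.03 FPKM in irradiated hippocampus and 0.265, 0 and 0.295 FPKM in control hippocampus, with no overlap and an exact two-sided permutation p of 0.1. In prefrontal cortex the sum was 0.142, 0.526 and 0 FPKM in irradiated mice, the second value from Hist2h2aa2, and it was 0 in all 3 control libraries (exact two-sided permutation p = 0.4). The mean of the sum was thus above that of the controls in both regions. How reads were divided between the copies and Gm20634 was not tested.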

How the results depend on the processing

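Over the alternatives run, no named member was called for irradiation in either region. In hippocampus 0 genes were called, against 4 with equal totals (Acer2, Crabp2, Ctgf and Lrg1), 3 with robust moderation, 1 in a fit over all 12 libraries (Vegfa) and 0 to 1 without single libraries. In prefrontal cortex 1 was called, against 2 with no filter, 0 in a fit over all 12 libraries and 1 to 4 without single libraries. The difference of the effects called 0 genes, against 1 with no filter (Hist2h2aa1) and 0 to 2 without single libraries. Between the regions of control mice 3922 genes were called, 2920 to 3843 without single libraries and 6523 over all 6 mice with the mouse as a block. With the replicate block 0 genes were called in hippocampus, 1 in prefrontal cortex and 4326 between the regions of control mice; no call of a member changed. The log2 ratio of the members' summed FPKM between control regions was 0.55, and 0.42 without Hist1h2bc.

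Hist1h2bc, Hist3h2a and Hist1h4i were called between the regions of control mice under all 15 other settings or subsets of those mice, while Hist1h1c and Hist2h2be were called under 10 and Hist2h2bb under 9. Small differences turned round. In hippocampus after irradiation Hist1h2be came to 0.0041 with equal medians and 0.048 with equal totals, and Hist3h2a to 0.032 with equal totals. Equal totals moved the median of all genes there to 0.068. Between control regions Hist1h1e came to -0.0047 with equal totals. Without single libraries the irradiation difference in hippocampus ran from -0.21 to 0.0053 for Hist2h2be, from -0.31 to 0.041 for Hist1h1e, from -0.092 to 0.11 for Hist1h2be, from -0.44 to 0.25 for Hist1h4k and from -0.12 to 0.0071 for Hist3h2a, and in prefrontal cortex from -0.16 to 0.012 for Hist2h2be. Between control regions it ran from -0.24 to 0.24 for Hist1h1e and from -0.011 to 0.19 for Hist3h2ba. The cause was not tested. Depth is known only as an estimate, so no limit from counting is given.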
